A study of Mus musculus with 4 samples.

Results

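The genes described here were the 39 DNA replication and S phase genes named by symbol in a fixed list, which covered G1/S regulators, origin licensing factors, replication fork proteins and nucleotide synthesis enzymes. All 39 were found among the 35798 genes named in the count table, and all 39 were among the 13822 genes that passed the filter on low counts. The list was written from gene function, not from the values, although earlier results of these data were known when it was drawn up.

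The study asked what TNFR2, the receptor encoded by Tnfrsf1b, does in NK cells that respond to murine cytomegalovirus (MCMV). Ly49H+ NK cells, which carry a receptor for an MCMV protein, were taken from wild-type donors, marked by CD45.1, and from TNFR2 KO donors, marked by CD45.2, and transferred together into NSG hosts, which were infected with MCMV 1 day later. NSG mice lack their own T, B and NK cells and keep their myeloid and other blood cells. The knockout was present in every cell of the donor, not in NK cells alone, before transfer. On D3.5 after infection, Ly49H+ cells of each CD45 type were sorted from spleen and their poly-A RNA was sequenced. There were 2 wild-type and 2 TNFR2 KO libraries. Per the labels, the wild-type and the TNFR2 KO library of each replicate number came from the same pooled spleens of 3 hosts. Both genotypes were therefore transferred, infected and harvested together, and no library came from uninfected cells. The genotype, the CD45 allele of the donor and the gate used in the sort cannot be told apart. The mice were young adults. The study describes 1 experiment in duplicate, with a pooled spleen sample of 3 infected mice, so the duplicates may share 1 pool. The p-values therefore measure the spread between these libraries, which may leave out variation between pools and between single mice.

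A cell that divides copies its genome once, in S phase. Cyclin E and CDK2 release E2F factors, which switch on the genes of replication. Origins are licensed when ORC, CDC6 and CDT1 load the MCM2-7 helicase onto DNA. The helicase is then activated by CDC45 and the GINS complex, and polymerases, the PCNA clamp and its loader copy the strands while ribonucleotide reductase and its partners supply the nucleotides. Ly49H+ NK cells are known for a burst of division in the days after MCMV infection.

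Total counts were 37147731 and 36119171 in the wild-type libraries and 39543650 and 32713256 in the TNFR2 KO libraries. Levels are TMM-scaled CPM, which put each gene's count in relation to the scaled library total, in the order of replicates 1 and 2. Below, wild-type cells and TNFR2 KO cells stand for the whole libraries, with RNA of any other cells they held. The log2-fold change is TNFR2 KO over wild-type with its SE, and a gene was called when edgeR's quasi-likelihood test gave a Benjamini-Hochberg adjusted p under 0.05 over all genes tested, whatever the fold. The targeted gene Tnfrsf1b stood at 265 and 269 CPM in wild-type libraries and at 55.1 and 58.6 CPM in TNFR2 KO ones (log2-fold change -2.23 ± 0.035, adjusted p = 1.35e-13). NK cell markers, led by Gzma, Gzmb and Il2rb, summed to 19467 and 19331 CPM in wild-type libraries and to 35559 and 35225 CPM in TNFR2 KO ones, and 34 of 35 were called higher, with a median log2-fold change of 0.93. Most markers of other cell types went the other way. Those of macrophages or monocytes (Lyz2, Mpeg1, Csf1r) summed to 2424 and 2400.1 against 318 and 316 CPM, with 16 of 16 tested lower. Those of neutrophils or their precursors (Mpo, S100a9, Ngp) summed to 1001 and 1019 against 98.9 and 95.6 CPM, with 13 of 13 lower, and those of mast cells or basophils (Prss34, Mcpt8, Cpa3) to 1283 and 1279.9 against 103 and 103 CPM, with 9 of 10 lower. The erythroid sum (Hba-a1, Hbb-bs, Hbb-bt) was 296 and 291 against 66.6 and 71.1 CPM, and the megakaryocyte sum (Itga2b, Gp1bb, Pf4) 40.2 and 37.2 against 3.88 and 4.78 CPM. Of the 6 megakaryocyte markers 5 were lower, and Gp1bb was not called, at 0.47 and 1.09 against 0.90 and 1.78 CPM. Dendritic cell or class II markers did not all go one way: their sum was 2135 and 2162 against 1033 and 1057 CPM, with 5 of 10 lower, Cd74 and H2-Ab1 among them, while Itgax was higher, at 419 and 409 against 882 and 908 CPM. T cell markers (Cd4, Cd3g, Cd28) summed to 1098 and 1083 against 939 and 945 CPM. Of the 9 tested, 6 were lower, Cd4 among them, and 1, Cd3g, was higher, while Cd28 was not called. Stromal or endothelial markers (Pecam1, Kdr, Col1a1) summed to 111 and 116 against 137 and 135 CPM. Most of that sum was Pecam1, at 105 and 110 against 134 and 134 CPM. Of the 6 stromal or endothelial markers tested, 3 were lower and 1, Pecam1, was higher, with a median log2-fold change of -0.89. B cell markers summed to 3.22 and 3.36 against 2.46 and 2.53 CPM, and Cd79b alone of them passed the filter and was lower. In all, 68 of 81 such markers were lower and 4 higher, and 0 of the markers in the table was at 0 in every library. Replication genes are used by any dividing cell, so these levels move with genotype beside every result below, and their part in those results was not tested. In bulk RNA, fewer cells in S phase and less replication RNA per cell cannot be told apart.

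Many replication genes hold short promoter letters known to bind E2F, and these are shown because most of the licensing genes have them. Promoters were taken from RefSeq (GRCm38.p6) as the 250 bases before and 50 bases after each start, and 32 of the 39 genes had an entry. Ccne2, Gmnn, Mcm4, Gins1, Gins2, Pole and Rfc2 had none. The E2F site was searched as TTTCCCGC, TTTCGCGC, TTTGCCGC or TTTGGCGC on both strands, and overlapping matches were counted separately. It was found in 7 of the 9 licensing genes with an entry. The capitals mark the matches, 5′ to 3′ on the strand of the gene. In 28-base windows, the site of Orc1 at chr4:108579417-108579444 (plus strand) begins 27 bases before the start, that of Cdc6 at chr11:98908003-98908030 (plus) 138 bases before, that of Mcm7 at chr5:138172031-138172058 (minus) 165 bases before, that of Mcm3 at chr1:20820276-20820303 (minus) 20 bases after and that of Cdt1 at chr8:122568037-122568064 (plus) 33 bases after the start.
Orc1: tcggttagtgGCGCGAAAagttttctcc
Cdc6: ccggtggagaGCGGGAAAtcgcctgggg
Mcm7: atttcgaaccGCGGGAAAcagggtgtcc
Mcm3: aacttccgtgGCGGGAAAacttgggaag
Cdt1: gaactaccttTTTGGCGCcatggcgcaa

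In Mcm5 and Mcm6 a pair of matches on opposite strands overlapped, so that the capitals run together. The 80-base stretches below lie upstream of the gene: Mcm5 at chr8:75109320-75109399 (plus strand, first match 153 bases before the start), Mcm6 at chr1:128359772-128359851 (minus, 110 bases before), Cdk2 at chr10:128705148-128705227 (minus, 140 bases before) and Pola1 at chrX:93632250-93632329 (minus, 138 bases before). Mcm5, Cdk2 and Pola1 were called lower in TNFR2 KO cells and Mcm6 was not called.
Mcm5: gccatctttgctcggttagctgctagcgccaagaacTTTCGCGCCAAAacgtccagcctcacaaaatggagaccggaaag
Mcm6: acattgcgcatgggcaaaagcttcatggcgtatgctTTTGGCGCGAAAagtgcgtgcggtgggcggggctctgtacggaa
Cdk2: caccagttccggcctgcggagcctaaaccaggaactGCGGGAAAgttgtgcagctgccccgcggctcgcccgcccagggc
Pola1: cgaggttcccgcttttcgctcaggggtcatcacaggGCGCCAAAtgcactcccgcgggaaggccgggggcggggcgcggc

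An E2F match stood in 14 of the 32 promoters (43.8%), in 473 of the 10238 promoters of all genes tested (4.62%) and in 2.6% of the 27025 genes in the promoter table. The CHR element (TTTGAA or TTCGAA), known from genes of mitosis, was in 6 of 32 (18.8%), close to the 17% over all genes tested, while 31 of 39 genes of a mitosis list (79.5%) held it. The CCAAT box was in 19 of 32 (59.4%), against 43.4% of all genes tested. By call, an E2F match stood in 8 of the 14 lower genes with an entry, in 6 of the 16 not called and in neither of the 2 higher ones, Ccne1 and Pcna. The median log2-fold change was -0.08 in the 14 genes with a match and -0.09 in the 18 without. A match is a description of the letters, not a bound site.

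**Figure D1:**
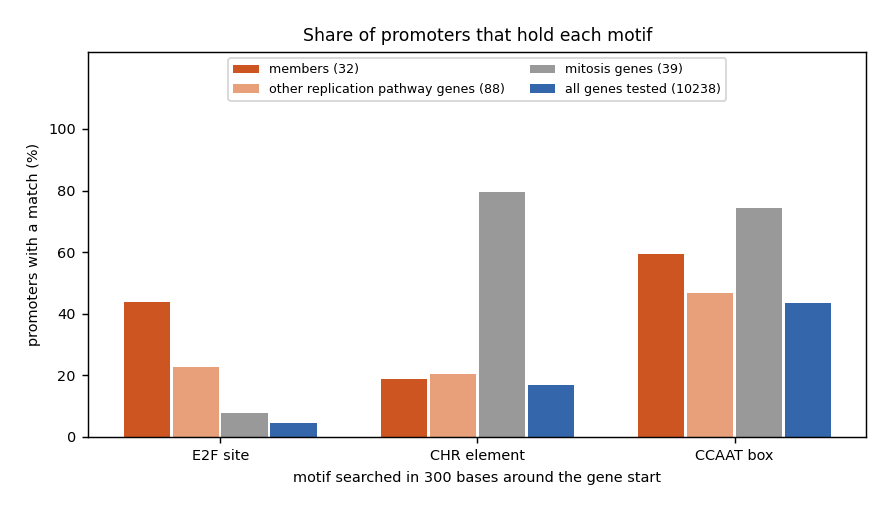
The bars give the share of promoters (%, 250 bases before to 50 after the start) that hold an E2F site, a CHR element or a CCAAT box, for the 32 replication genes with an entry, 88 other replication pathway genes, 39 mitosis genes and 10238 genes tested. E2F sites stand in 43.8% of the replication genes and 7.69% of the mitosis genes, and CHR elements in 18.8% and 79.5%.

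Replication genes were expressed at moderate to high levels in all 4 libraries. The median log2-fold change was -0.05 under TMM scaling and -0.95 when the libraries were scaled on NK cell genes. Mean levels ran from 16.6 CPM (Orc1) to 435 CPM (Pcna), with a median of 81.5 CPM against 22.2 CPM over all genes tested, and 15 genes were over 100 CPM. The smallest count of any of them in a library was 494. Per kb of exon, Pcna was at 175 CPM in wild-type cells and 187 CPM in TNFR2 KO cells, Rrm2 at 141 in both, Mcm5 at 87.8 and 83.5 and Mcm6 at 75.5 and 76.4, and Orc1 was the lowest, at 5.21 and 4.33. The order of the 39 levels was nearly the same in every pair of libraries (Spearman's rho 0.987 to 0.997, a description across genes that share a library). The 39 levels summed to 5098 and 5110.3 CPM in wild-type cells and to 4941 and 4902 CPM in TNFR2 KO libraries, so that the TNFR2 KO mean was 3.57% lower and the groups did not overlap.

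**Figure D2:**
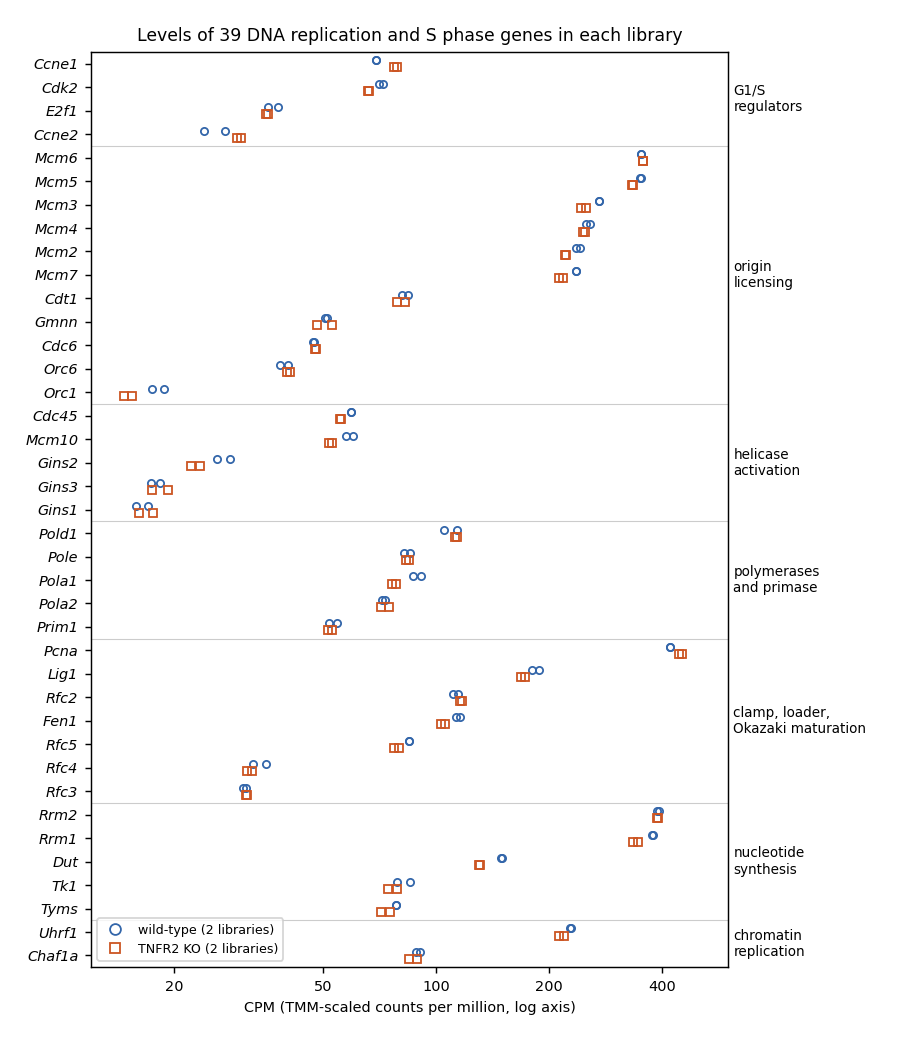
Each row is 1 gene, the x axis is its TMM-scaled level in CPM on a log axis, circles are the 2 wild-type and squares the 2 TNFR2 KO libraries, and genes are grouped by role and ordered by level. For most genes the 4 points lie within a narrow band, as for Rrm2 (388 to 392 CPM), while Dut, Rrm1 and Pola1 show squares to the left of circles and Pcna and Ccne1 squares to the right.

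Of the 39 genes, 15 were called lower and 3 higher in TNFR2 KO cells, and 21 were not called. These calls are under TMM scaling, and the 3 higher genes turned lower when the libraries were scaled on NK cell markers. The called share, 46.2%, has to be read against all genes tested, of which 50.4% were called, 26.2% lower and 24.2% higher. Of the called genes, 83.3% of the replication genes were lower, against 52.0% over all called genes. The median log2-fold change was -0.05, against -0.0028 over all genes tested. Both TNFR2 KO libraries lay below both wild-type libraries in 20 genes, where 37.7% of all genes tested did so, and above in 6, where 36.4% of all did. An unadjusted p under 0.05 was reached by 20 genes, against a background of 55.7%.

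Under TMM scaling the differences were small. None of the 39 was past an absolute log2-fold change of 0.5 or of 1, while 21.2% and 13.3% of all genes tested were called past those limits. Scaled on NK cell genes, all 39 were called lower by more than 0.5, as were 84.7% of all genes tested, and 13 by more than 1, as were 36.3%. With TMM the changes ran from -0.27 (Orc1, a fall of 16.9%) to 0.22 (Ccne2, a rise of 16.4%), and 56.6% of all genes tested differed by less than the Orc1 difference in size. The 95% interval lay within -0.5 and 0.5 for all 39 genes, against 55.3% of all genes tested, and within -0.25 and 0.25 for 32 of them, against 29.0%. Duplicates differed by a median of 0.035 on the log2 scale and genotypes by 0.090, so a difference of a few percent could pass the test at these counts. Over all genes tested these medians were 0.074 and 0.218. The first is between single libraries and the second between fitted group levels.

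**Figure D3:**
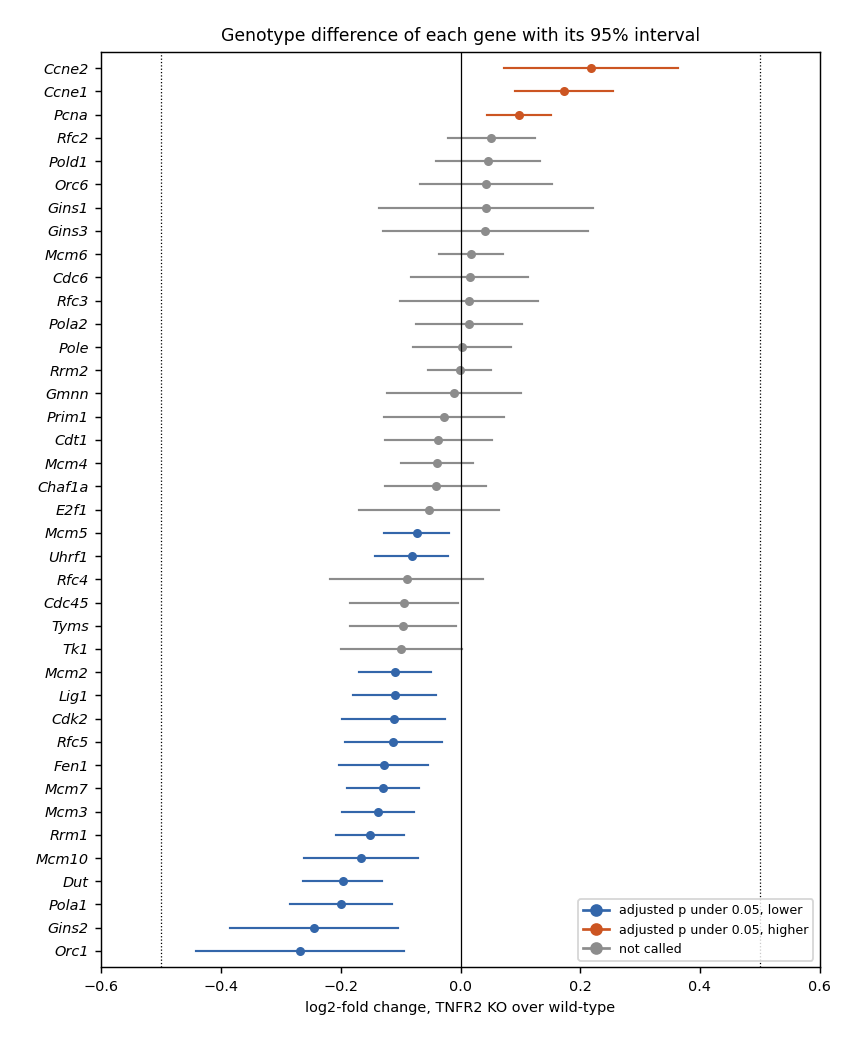
The points are log2-fold changes, TNFR2 KO over wild-type, and the bars their 95% intervals from the quasi-likelihood fit, ordered by size and coloured by call, with dotted lines at -0.5 and 0.5. Every bar ends inside the dotted lines, between -0.44 and 0.36, and the 15 lower calls stand in the lower part of the plot.

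Among the 4 G1/S regulators, both cyclin E genes were higher and their kinase was lower, where 24.2% and 26.2% of all genes tested were. Ccne1, a cyclin that drives entry into S phase, was at 69.3 and 69.0 CPM in wild-type cells and at 78.7 and 77.2 CPM in TNFR2 KO libraries, with no overlap (log2-fold change 0.17 ± 0.038, adjusted p = 0.0023). Ccne2, its close relative, was at 27.3 and 24.1 against 30.2 and 29.5 CPM, again with no overlap (0.22 ± 0.066, adjusted p = 0.016). Cdk2, the kinase that cyclin E activates, was at 72.3 and 70.3 against 66.1 and 65.9 CPM (-0.11 ± 0.039, adjusted p = 0.032), with both TNFR2 KO libraries below. E2f1, a transcription factor of S phase genes, was at 35.5 and 37.9 against 35.6 and 35.1 CPM, and the groups overlapped (adjusted p = 0.45). The Ccne1 call was kept with each library left out. The Ccne2 call was lost without wild-type replicate 2 (adjusted p = 0.14) and by DESeq2 (0.074), and the Cdk2 call with any 1 library left out (0.068 to 0.23) and by DESeq2 (0.16).

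Of the 11 licensing genes, 5 were lower (45.5%) and 0 higher, where 26.2% and 24.2% of all genes tested were. Helicase subunits made up 4 of the 5. Orc1, the largest subunit of the origin recognition complex, was at 17.5 and 18.8 CPM in wild-type cells and at 14.7 and 15.4 CPM in TNFR2 KO libraries (-0.27 ± 0.079, adjusted p = 0.014). It was the lowest of the 11 genes in level and the 1 with the largest change, without overlap, and its call was lost without wild-type replicate 2 (adjusted p = 0.13) or TNFR2 KO replicate 1 (0.056) and by DESeq2 (0.083). The loader genes Cdc6 (47.2 and 46.8 against 47.7 and 47.4 CPM) and Cdt1 (81.1 and 84.1 against 78.5 and 82.7 CPM) were not called (adjusted p = 0.81 and 0.49). The same held for Gmnn, which encodes the CDT1 inhibitor geminin (50.4 and 51.2 against 52.6 and 48.1 CPM, adjusted p = 0.88), and for Orc6 (40.1 and 38.2 against 40.8 and 39.9 CPM, adjusted p = 0.52). The 95% intervals of these 4 genes ran from -0.13 to 0.15.

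The 6 helicase subunits Mcm2 to Mcm7 form 1 ring in equal numbers, and 4 of the 6 were lower, against 26.2% of all genes tested. Mcm3 was at 271 and 272 CPM in wild-type cells and at 250.3 and 243 CPM in TNFR2 KO libraries (-0.14 ± 0.027, adjusted p = 0.0011). Mcm7 was at 236 and 236 against 218 and 213 CPM (-0.13 ± 0.027, adjusted p = 0.0019), and Mcm2 at 236 and 242 against 221 and 222 CPM (-0.11 ± 0.028, adjusted p = 0.0056). In these 3 genes every TNFR2 KO library lay below every wild-type library, as was so for 37.7% of all genes tested. Mcm5 was at 349.9 and 351 against 332 and 335 CPM (-0.07 ± 0.025, adjusted p = 0.026), also with no overlap. Mcm4 (258 and 251 against 246 and 249.5 CPM, adjusted p = 0.26) and Mcm6 (352 and 352 against 357 and 356 CPM, adjusted p = 0.60) were not called. Both Mcm6 values in TNFR2 KO cells were above the wild-type ones by about 1%. Summed, the 6 genes stood at 1703 and 1704 CPM in wild-type cells and at 1624 and 1618 CPM in TNFR2 KO libraries. Mcm3 and Mcm7 were called with each library left out, Mcm2 not without wild-type replicate 2 (adjusted p = 0.085), and Mcm5 was called in none of the 4 such fits (0.052 to 0.16). Of the 31-base stretches of Mcm7, 26.8% also occur in other genes, and of those of Mcm4 5.26%. The genes that share the most with them, Gm5487 and Gm9577, were counted at 1.09 or less in every library.

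Of the 5 helicase activation genes, 2 were lower (40%) and 0 higher, where 26.2% and 24.2% of all genes tested were. Mcm10, which helps the loaded helicase to open the DNA, was at 59.8 and 57.5 CPM in wild-type cells and at 51.9 and 52.7 CPM in TNFR2 KO libraries (-0.17 ± 0.044, adjusted p = 0.0074). Gins2, a subunit of the GINS complex, was at 26.0 and 28.1 against 23.5 and 22.1 CPM (-0.24 ± 0.064, adjusted p = 0.0073). Neither gene overlapped between genotypes. Both TNFR2 KO libraries lay below both wild-type ones in 37.7% of all genes tested. The Gins2 partners Gins1 (15.8 and 17.0 against 17.6 and 16.1 CPM) and Gins3 (17.3 and 18.4 against 19.3 and 17.4 CPM) overlapped and were not called (adjusted p = 0.71 and 0.70), with 95% intervals of -0.14 to 0.22 and -0.13 to 0.21. Cdc45, the other helicase partner, was at 59.2 and 59.3 against 55.7 and 55.3 CPM, separated by library but not past the threshold (-0.09 ± 0.041, adjusted p = 0.076). The Mcm10 call was lost without wild-type replicate 1 (adjusted p = 0.078) and the Gins2 call without wild-type replicate 2 (0.098) and by DESeq2 (0.051).

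Of the 5 polymerase and primase genes 1 was called (20%), against 50.4% of all genes tested. Pola1, the catalytic subunit of the polymerase that starts each new strand, was at 90.9 and 86.6 CPM in wild-type cells and at 78.2 and 76.2 CPM in TNFR2 KO libraries (-0.20 ± 0.039, adjusted p = 0.0011), and it was called with each library left out. The other subunits of its complex were not called: Pola2 was at 71.9 and 72.8 against 71.2 and 74.9 CPM, and the primase gene Prim1 at 54.5 and 51.9 against 52.8 and 51.6 CPM (adjusted p = 0.81 and 0.66). The main copying polymerases, Pold1 for the lagging strand (105 and 113 against 112 and 114 CPM) and Pole for the leading strand (85.0 and 82.0 against 82.8 and 84.6 CPM), overlapped between genotypes (adjusted p = 0.36 and 0.96). Their 95% intervals were -0.04 to 0.13 and -0.08 to 0.09.

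At the clamp and on the lagging strand, the clamp gene was higher while 3 genes of its loader and of strand joining were lower. Of the 7 genes, 42.9% were thus lower and 14.3% higher, where 26.2% and 24.2% of all genes tested were. Pcna, the sliding clamp that holds polymerases on DNA, was at 419 and 421 CPM in wild-type cells and at 453 and 445 CPM in TNFR2 KO libraries (0.10 ± 0.024, adjusted p = 0.0052), with no overlap and with the call kept under each library left out. Fen1, the nuclease that trims Okazaki fragments, was at 115 and 113 against 106 and 103 CPM (-0.13 ± 0.034, adjusted p = 0.0074). Lig1, the ligase that seals them, was at 179.7 and 188 against 172 and 168 CPM (-0.11 ± 0.032, adjusted p = 0.013). Rfc5, a subunit of the clamp loader, was at 84.8 and 84.5 against 77.1 and 79.6 CPM (-0.11 ± 0.037, adjusted p = 0.024). In these 3 genes the TNFR2 KO libraries lay below both wild-type ones, as they did in 37.7% of all genes tested. The other loader genes Rfc2 (111 and 114 against 116 and 117 CPM), Rfc3 (30.5 to 31.2 CPM in the 4 libraries) and Rfc4 (35.3 and 32.4 against 32.3 and 31.2 CPM) were not called (adjusted p = 0.23, 0.85 and 0.23). Calls were lost for Fen1 without wild-type replicate 1 (adjusted p = 0.078), for Lig1 without wild-type replicate 2 (0.18), and for Rfc5 by DESeq2 (0.12) and in 3 of the 4 fits with a library left out (0.10 to 0.20). Of the 31-base stretches of Pcna, 23.3% also occur in other genes. The gene that shares the most with it, the processed copy Pcna-ps2, was at 10.3 and 9.30 against 1.19 and 1.25 CPM. Pcna and Pcna-ps2 together were at 429.8 and 429.9 against 455 and 447 CPM, a log2 ratio of means of 0.07.

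Nucleotide synthesis held the smallest adjusted p values of the list. Dut, which destroys dUTP and so keeps uracil out of DNA, was at 150.1 and 149 CPM in wild-type cells and at 131 and 129.6 CPM in TNFR2 KO libraries (-0.20 ± 0.030, adjusted p = 0.00016). Rrm1, the large subunit of ribonucleotide reductase, was at 378 and 376 against 345 and 334 CPM (-0.15 ± 0.026, adjusted p = 0.00042). Both were called with each library left out. Rrm2, the small subunit of the same enzyme and the one that rises in S phase, was at 392 and 388 against 390.4 and 389 CPM, with overlapping groups and a 95% interval of -0.05 to 0.05 (adjusted p = 0.97). Between the subunits of this enzyme, Rrm1 fell by 9.92% beside a difference of -0.11% in Rrm2, and the difference between them was not tested. Tyms, which makes thymidylate, was at 78.0 and 78.3 against 71.2 and 75.2 CPM, and Tk1, which salvages thymidine, at 78.7 and 85.3 against 78.5 and 74.4 CPM. Neither was called (adjusted p = 0.066 and 0.099), though both TNFR2 KO libraries lay below both wild-type ones, as in 37.7% of all genes tested. With 1 library left out, Tyms was called once (without TNFR2 KO replicate 2, adjusted p = 0.027) and Tk1 in 2 of 4 fits (without wild-type replicate 1, 0.029, and without TNFR2 KO replicate 1, 0.028).

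Of the chromatin genes, Uhrf1, which brings the maintenance DNA methyltransferase to newly copied DNA, was at 228 and 228 CPM in wild-type cells and at 219 and 212 CPM in TNFR2 KO libraries (-0.08 ± 0.028, adjusted p = 0.030). Its call was lost by DESeq2 (adjusted p = 0.076) and in 3 of 4 fits with a library left out. Of its 31-base stretches, 24.2% occur in other genes, and Gm5648, which shares the most with it, had at most 4.44 counts. Chaf1a, a subunit of the histone chaperone CAF-1, was at 88.2 and 90.3 against 84.6 and 88.9 CPM and overlapped (adjusted p = 0.41). Over the whole list, most lower calls and the Ccne2 call were lost with at least 1 library left out. The share of all genes tested that lost calls in this way was not counted. Genes whose lower calls were kept had log2-fold changes of -0.15 to -0.11 (Mcm3), -0.14 to -0.11 (Mcm7), -0.23 to -0.16 (Pola1), -0.16 to -0.12 (Rrm1) and -0.19 to -0.18 (Dut) in these fits. Those whose higher calls were kept had 0.17 to 0.19 (Ccne1) and 0.09 to 0.12 (Pcna). Without wild-type replicate 2, the number of lower genes was 7, where 20.7% of all genes tested were lower.

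The size and direction of these differences rest on how the libraries were scaled. A change of scaling moves all genes by nearly the same amount, so the calls under each have to be read against those over all genes. With library size alone, where all genes shifted to a median of -0.06, the 39 genes had a median of -0.11, with 21 lower and 1 higher where 31.7% and 17.5% of all genes tested were, and Ccne2 and Pcna were no longer called (adjusted p = 0.069 and 0.23). When the libraries were scaled so that the NK cell markers were level on average, all genes shifted to a median of -0.90. The 39 genes then had a median of -0.95, from -1.16 to -0.68, and all 39 were lower, Ccne1, Ccne2 and Pcna included (largest adjusted p = 7.17e-07). With this scaling 89.0% of all genes tested were called lower and 0.738% higher. The counts of 15 lower and 3 higher therefore hold relative to the average gene of the library. Every replication gene was lower relative to the average of the NK cell markers. Those markers themselves ranged from 0.014 (Il12rb2) to 1.65 (Serpinb9b) under TMM. This scaling takes their average to be the same in both genotypes, which was not tested.

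**Figure D4:**
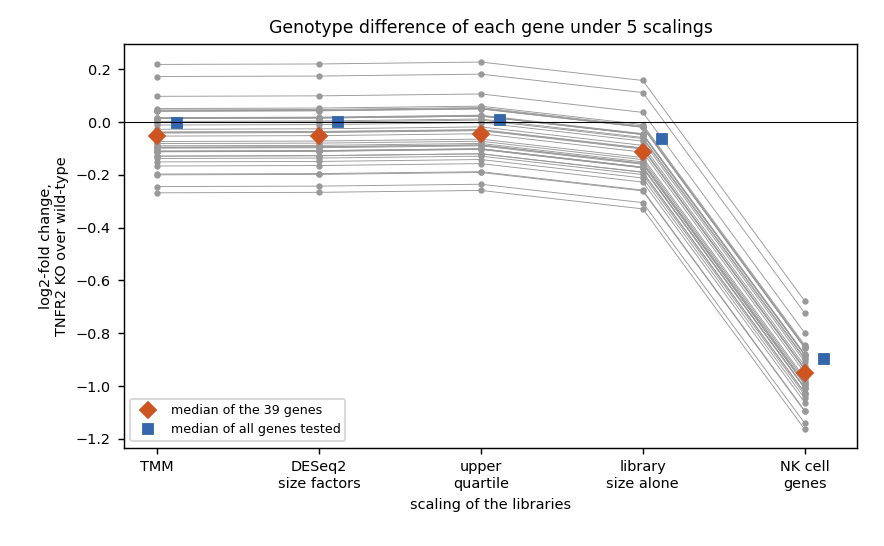
Each grey line is 1 of the 39 genes and shows its log2-fold change, TNFR2 KO over wild-type, under 5 scalings of the libraries, with diamonds for the median of the 39 genes and squares for the median of all genes tested. The lines stay close to 0 under TMM, DESeq2 size factors and upper quartile, and drop together under NK cell genes, where diamond and square stand at -0.95 and -0.90.

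The wider replication pathway was taken from 6 lists of 106 other genes. Of these, 37 were lower and 19 higher (52.8% called, against 50.4% of all genes tested), with a median log2-fold change of -0.07. Among 18 cyclins, kinases and E2F factors, 8 were lower (44.4%) and 3 higher (16.7%), against 26.2% and 24.2% of all genes tested. Myb, a transcription factor of blood progenitors, was at 51.4 and 54.5 against 37.8 and 37.1 CPM (-0.50 ± 0.050, adjusted p = 4.06e-06), and the D-type cyclin gene Ccnd1 at 3.64 and 3.42 against 1.01 and 1.09 CPM (-1.75 ± 0.22, adjusted p = 2.94e-05). The 2 other D-type cyclins, which were far more abundant, were higher: Ccnd3 at 508 and 515 against 574 and 598 CPM (0.20 ± 0.026, adjusted p = 5.32e-05) and Ccnd2 at 228 and 226 against 252 and 251 CPM (0.15 ± 0.026, adjusted p = 0.00057). These directions hold under TMM, and with scaling on NK cell genes 104 of the 106 pathway genes were lower, where 89.0% of all genes tested were, and 0 higher.

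Of 10 G1/S inhibitors, 2 were lower (20%) and 4 higher (40%). Beside both lists of this paragraph, 26.2% of all genes tested were lower and 24.2% higher. Cdkn1a, which encodes the CDK inhibitor p21, was at 60.6 and 63.0 against 35.8 and 35.9 CPM (-0.79 ± 0.046, adjusted p = 2.86e-08), and Rb1, the retinoblastoma gene, at 92.1 and 88.0 against 75.2 and 75.2 CPM (-0.26 ± 0.038, adjusted p = 0.00011). Its relative Rbl2 was at 222 and 231 against 295 and 288 CPM (0.36 ± 0.029, adjusted p = 5.06e-07), and Cdkn2c, an inhibitor of CDK4 and CDK6, at 74.8 and 73.9 against 90.9 and 92.7 CPM (0.30 ± 0.036, adjusted p = 2.00e-05). Among 16 genes of origin recognition and firing, 0 were lower and 2 higher: Donson, which helps to assemble the active helicase (41.2 and 38.5 against 47.8 and 50.7 CPM, adjusted p = 0.00047), and Gins4, the fourth GINS gene (35.7 and 33.8 against 40.8 and 38.9 CPM, adjusted p = 0.0084). Topbp1, the most abundant of them, was at 263 and 253 against 253 and 257 CPM (adjusted p = 0.63). So within GINS, Gins2 was lower, Gins4 higher and Gins1 and Gins3 not called.

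Among 24 further fork genes, 5 were lower and 5 higher (20.8% each), below the 26.2% and 24.2% of all genes tested. Top1, which unwinds DNA ahead of the fork, was at 154 and 157 against 139.8 and 139.8 CPM (-0.16 ± 0.030, adjusted p = 0.00088) and the nuclease-helicase gene Dna2 at 39.02 and 37.2 against 32.1 and 30.4 CPM (-0.28 ± 0.055, adjusted p = 0.0010). Of the 3 subunits of the single-strand binding protein RPA, 2 were higher with TMM: Rpa2 at 78.8 and 78.4 against 95.1 and 91.2 CPM (0.25 ± 0.037, adjusted p = 0.00015) and Rpa1 at 279 and 281 against 313 and 303 CPM (0.14 ± 0.027, adjusted p = 0.0011). Rpa3, the other subunit, was at 32.9 and 33.3 against 28.7 and 32.4 CPM and was not called (-0.12 ± 0.063, adjusted p = 0.15). Among 10 genes of chromatin assembly and DNA methylation, 3 were lower (30%) and 1 higher (10%). Hells, a chromatin remodeller (101 and 91.5 against 77.3 and 80.8 CPM, adjusted p = 0.00034), and Ssrp1, a histone chaperone subunit (469 and 454 against 425 and 416 CPM, adjusted p = 0.0011), were lower, and Slbp, which binds the ends of histone mRNAs, was higher (172 and 169 against 187 and 185 CPM, adjusted p = 0.0027).

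Of the 6 pathway lists, nucleotide supply had the most calls: 19 of 28 genes were lower (67.9%) and 4 higher (14.3%), with a median of -0.21. Over all genes tested the shares were 26.2% and 24.2%. Samhd1, which breaks down dNTPs and is abundant in myeloid cells, was at 818 and 804 against 512 and 524 CPM (-0.65 ± 0.024, adjusted p = 3.53e-10). Atic, which completes purine ring synthesis, was at 111 and 111 against 86.7 and 85.2 CPM (-0.37 ± 0.034, adjusted p = 1.90e-06). Impdh1, an enzyme of guanine nucleotide synthesis, was at 82.2 and 84.5 against 108 and 111 CPM (0.39 ± 0.036, adjusted p = 1.87e-06) and the mitochondrial kinase gene Tk2 at 22.4 and 23.3 against 28.7 and 25.6 CPM (0.25 ± 0.067, adjusted p = 0.0082). The 5 nucleotide synthesis genes of the replication list had a median of -0.10, with 2 lower.

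Genes of mitosis, a later phase of the cycle, are used by the same dividing cells. Of 47 such genes, 24 were lower, 3 higher and 20 not called, with a median of -0.09, where 26.2% of all genes tested were lower and 24.2% higher. Top2a, the most abundant, was at 1073 and 1046 against 953 and 963 CPM (-0.14 ± 0.023, adjusted p = 0.00020). Ube2c and Ccnb1, which act in anaphase and in entry into mitosis, were at 241 and 242 against 191 and 197 CPM and at 212 and 206 against 170.2 and 162 CPM (adjusted p = 1.51e-06 and 3.28e-06). Ncapd2 (332 and 328 against 349 and 352 CPM, adjusted p = 0.012) and Cenpa (176 and 177 against 183 and 194 CPM, adjusted p = 0.031) were higher with TMM and lower when scaled on NK cell genes. A difference between the replication and the mitosis lists was not tested.

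**Figure D5:**
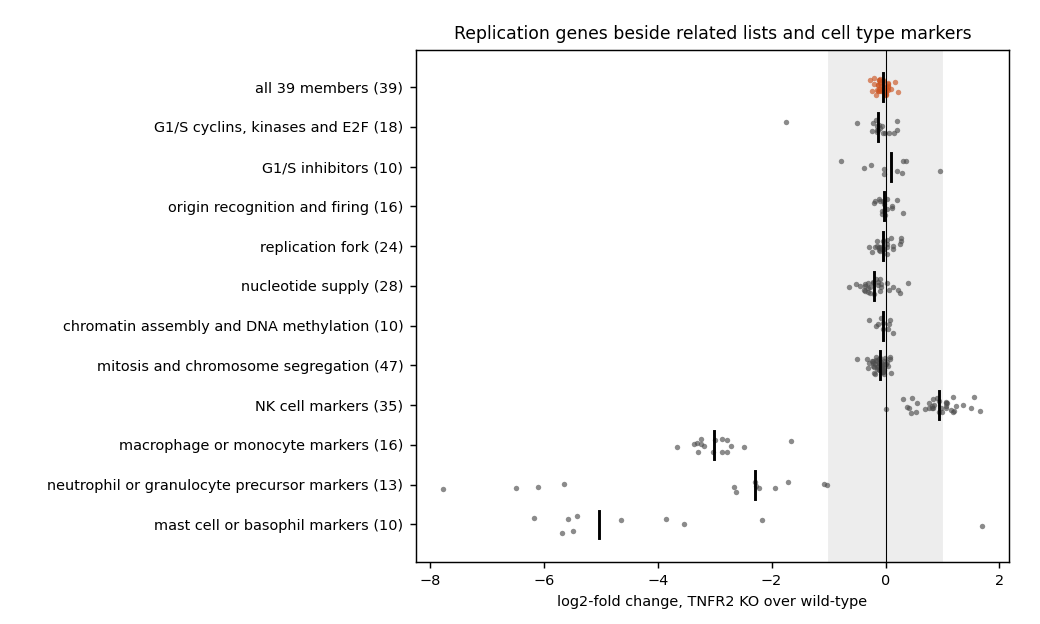
Each point is the log2-fold change of 1 gene, TNFR2 KO over wild-type with TMM scaling, and the black bar is the median of the list, with the number of genes tested in parentheses and the band from -1 to 1 shaded. The 39 replication genes lie within -0.27 and 0.22, while NK cell markers have a median of 0.93 and macrophage, neutrophil and mast cell markers lie mostly to the left of the band.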

How the data were processed

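The authors trimmed paired-end, stranded poly-A reads with Trimmomatic 1.4, assigned them to mm10 transcripts with kallisto 0.46.1 (versions from the submitters' processing notes) and added up transcripts to genes with Tximport. The authors deposited the estimated counts per gene, with no scaling across libraries. No source used here names the transcript annotation. A row with no gene name (0.056% to 0.073% of counts) was left out.

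Counts were rounded and tested with edgeR 4.0.16 in R 4.3.3 (filterByExpr, TMM, quasi-likelihood, genotype as the only term). Alternatives were DESeq2 1.42.0, other scalings, no filter or at least 10 CPM, fold limits of 0.5 and 1, the replicate block and each library left out. The steps were checked on simulated counts. With 2 libraries against 2, an exact permutation p cannot fall under 0.333. Intervals cover the spread between these libraries only. Mean chi-square per gene between duplicates was 3.27 (wild-type) and 3.47 (TNFR2 KO), so duplicates differed by more than counting noise. Per the labels, same-numbered libraries share a pool of spleens, so the numbers pair the samples. Their deviations correlated at 0.049 over all genes tested, at 0.149 over genes at 10 CPM or more and at -0.081 over the replication genes described here.

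The genes, the pathway, mitosis and marker lists and the tests were chosen with earlier results of these data known. Named besides the 39 genes were Tnfrsf1b, the most abundant gene and the 2 smallest adjusted p values in each direction of each pathway list and the mitosis list, and the 3 most abundant genes of each marker list. Pcna-ps2, Rpa3 and the genes that share stretches were added after values were seen, as were the fold limits under scaling on NK cell genes. Exon lengths and shared 31-base stretches came from GENCODE M21 (GRCm38), which stands in for the authors' annotation.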

Additional observations from a re-analysis of the deposited data

How the results depend on the processing

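With 2 libraries per genotype, calls near the threshold are the least certain, and genes under about 20 CPM have the widest intervals. The replicate block, which pairs libraries of the same replicate number, gave 15 lower and 3 higher replication genes and 38 lower and 19 higher pathway genes. It changed no call of the 39 genes, and 26.6% of all genes tested were lower with it and 24.7% higher. DESeq2's size factors, upper-quartile scaling and no filter kept 15 lower and 3 higher, and DESeq2's own test gave 10 and 2. With a fold limit of 0.5 or of 1 the counts were 0 and 0, where 21.2% and 13.3% of all genes tested were called past those limits. Library size alone gave 1 higher replication gene, 59 lower and 12 higher pathway genes and a median of -0.11. There 31.7% of all genes tested were lower and 17.5% higher. Scaling on NK cell genes gave 39 lower and 0 higher replication genes, 104 lower and 0 higher pathway genes and a median of -0.95. With it 89.0% of all genes tested were lower and 0.738% higher. With that scaling and a limit of -0.5 or -1, chosen after seeing the data, 39 and 13 were lower, as were 84.7% and 36.3% of all genes tested. With a mean of at least 10 CPM, 19 replication genes were lower, where 28.6% of the genes tested were, and the median was -0.089. With 1 library left out, lower replication genes numbered 7 to 13, higher ones 2 to 3, lower pathway genes 30 to 37, higher ones 16 to 22, and the median was -0.06 to -0.05. The Tnfrsf1b log2-fold change was -3.13 when scaled on NK cell genes and -2.29 to -2.18 otherwise.

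The log2-fold changes that turned sign belonged to genes near 0 except under scaling on NK cell genes, which lowers every value by about 0.90. Rrm2 became 0.00029 with DESeq2's size factors, 0.00028 with DESeq2's test, 0.0041 with no filter and 0.0075 with upper-quartile scaling. With library size alone, the values were -0.018 (Orc6), -0.046 (Cdc6), -0.044 (Mcm6), -0.019 (Gins1), -0.020 (Gins3), -0.047 (Pola2), -0.015 (Pold1), -0.058 (Pole), -0.0093 (Rfc2), -0.047 (Rfc3) and -0.0034 (Cd28). With a mean of at least 10 CPM, they were -0.021 (Cdc6), -0.019 (Mcm6), -0.022 (Pola2), -0.033 (Pole) and -0.022 (Rfc3). Scaled on NK cell genes, replication genes became -0.72 (Ccne1), -0.68 (Ccne2), -0.85 (Orc6), -0.88 (Cdc6), -0.88 (Mcm6), -0.85 (Gins1), -0.86 (Gins3), -0.88 (Pola2), -0.85 (Pold1), -0.89 (Pole), -0.80 (Pcna), -0.84 (Rfc2) and -0.88 (Rfc3). Other genes became -0.70 (Ccnd3), -0.75 (Ccnd2), -0.53 (Rbl2), -0.59 (Cdkn2c), -0.59 (Donson), -0.70 (Gins4), -0.65 (Rpa2), -0.76 (Rpa1), -0.51 (Impdh1), -0.65 (Tk2), -0.77 (Slbp), -0.81 (Ncapd2), -0.80 (Cenpa), -0.12 (Gp1bb), -0.80 (Cd3g), -0.84 (Cd28), -0.58 (Pecam1), -0.14 (Gzmb) and -0.46 (Il2rb). With 1 library left out, values ranged over -0.091 to 0.0024 (E2f1), -0.070 to 0.013 (Cdt1), -0.069 to 0.055 (Gmnn), -0.014 to 0.11 (Gins1), -0.025 to 0.11 (Gins3), -0.017 to 0.061 (Pola2), -0.053 to 0.017 (Prim1), -0.014 to 0.037 (Pole), 2.07e-05 to 0.014 (Rrm2) and -0.071 to 0.0056 (Chaf1a), and -0.037 to 0.017 (Topbp1). None of these genes was called with all 4 libraries.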

Other observations

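Pcna-ps2, a processed copy of Pcna, was estimated at 389.89 and 342.63 counts in the wild-type libraries and at 46.43 and 40.47 counts in the TNFR2 KO libraries (log2-fold change -3.01 ± 0.16, adjusted p = 1.26e-08 by edgeR), opposite to Pcna itself. Of the other genes that share at least 5% of 31-base stretches with a replication gene, Gm48455, the main sharer of Rrm2 (11.98% of stretches), had 15.01 and 7.01 counts in wild-type and 0 and 1 in TNFR2 KO libraries. For Tyms (9.82%), Rfc5 (9.15%), Cdc6 (8.78%) and Mcm4 (5.26%) these were Tyms-ps, Gm12870, Gm9430 and Gm9577, with at most 1 count in any library. The share held by each of these genes alone was not measured.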
